A study of Mus musculus with 24 samples.

Results

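The response of the adult hippocampus to environmental enrichment was examined in mice that lack functional CBP in excitatory neurons. The comparison rests on 6 of the 12 mice with counts in this series: 3 CBP-ifKOs kept in the standard cage (SC) and 3 CBP-ifKOs kept in environmental enrichment (EE), chosen by their labels of genotype and housing. CBP-ifKOs carry the alleles Crebbp_flox and Camk2a_creERT2, and tamoxifen, given in 5 administrations of a 20 mg/mL solution, switches on a recombinase in the excitatory neurons of the forebrain, where the floxed allele is then cut and yields a truncated protein. Their creERT2-negative littermates, also given tamoxifen, served as controls, and their values are set beside those of the CBP-ifKOs. The controls also enter the fit. It covers all 12 mice, and the 4 groups share the estimate of the spread behind each SE and p. All mice were C57BL/6 females of 3 to 6 months. EE meant a month in a large box with wheels, toys and cage mates, renewed every 48 h. The labels do not say which mice shared a box, so housing group and EE cannot be told apart. Each library is the hippocampus of 1 mouse, sequenced in 2 runs that were merged before counting, and the values are counts of reads on the exons of each gene.

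CBP (Crebbp) is a lysine acetyltransferase that transcription factors such as CREB recruit to enhancers and promoters, and its close relative p300 (Ep300) can take over part of its work. In neurons, synaptic activity first induces immediate early genes, which are mostly transcription factors, and these and CREB then induce late response genes, whose products act at the synapse. EE is known to favor dendritic growth, new neurons in the dentate gyrus and better memory, and part of this benefit has been tied to acetylation of histones.

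Totals of the CBP-ifKO libraries ran from 28582210 to 36882312 counts in the 3 SC mice and from 33143606 to 37448388 counts in the 3 EE mice. Every count in these 6 libraries was even, which was not so in the controls, and the tests of EE in CBP-ifKOs by edgeR and by DESeq2 were therefore repeated with these counts halved. Levels are given as CPM, counts brought to a common library total with edgeR's TMM factors. A floor of 3 counts lay between 0.0801 and 0.105 CPM and covers counting error only. If each read was counted 2 times, which was not tested, the totals stood for 14291105 to 18724194 reads and a floor of 3 reads lay between 0.16 and 0.21 CPM. The transgene was seen through Esr1, whose ligand-binding part belongs to creERT2. It stood between 67 and 81.7 CPM in the 6 CBP-ifKOs and between 3.47 and 5.82 CPM in the 6 controls. Crebbp stood between 44.5 and 51.6 CPM in the CBP-ifKOs and between 69.6 and 81.9 CPM in the controls, and since only a floxed exon is lost and other cells keep the gene, this level checks the genotype only in part. Markers of the hippocampal fields and of its cell types were present, among them Prox1 of dentate granule cells (88.7 to 115 CPM), Wfs1 of CA1 (69 to 97.1 CPM) and Gad1 of interneurons (400 to 421 CPM). In whole tissue, fewer cells of a type and less RNA per cell cannot be told apart.

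The question was which genes and gene groups of CBP-ifKOs differed between EE and SC. After edgeR's filter on low counts, 18251 genes were tested, and 2 of them passed an adjusted p of 0.05 in edgeR's quasi-likelihood test with Benjamini-Hochberg adjustment, BC002163, which rose in EE, and 2810459M11Rik, which fell. These are 0.011% of the genes tested. At an unadjusted p below 0.05, 724 genes (3.97%) were higher and 843 (4.62%) lower in EE, and the values of SC and EE mice did not overlap in 1403 genes (7.69%) that were higher and in 1492 (8.17%) that were lower. With halved counts, 17500 genes were tested, none passed in edgeR's quasi-likelihood test, the smallest adjusted p was 0.0927 and 1300 genes stood below an unadjusted p of 0.05. DESeq2's Wald test called 54 genes with the counts as deposited and 32 with halved counts, and both named genes lost their call in edgeR when any 1 of the 6 CBP-ifKO mice was left out. In the controls no gene passed in edgeR's quasi-likelihood test (768 genes, 4.21%, at an unadjusted p below 0.05), against 15 with DESeq2. The test of whether the EE effect differed between genotypes called no gene with either tool, and 574 genes (3.15%) stood below an unadjusted p of 0.05.

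**Figure D1:**
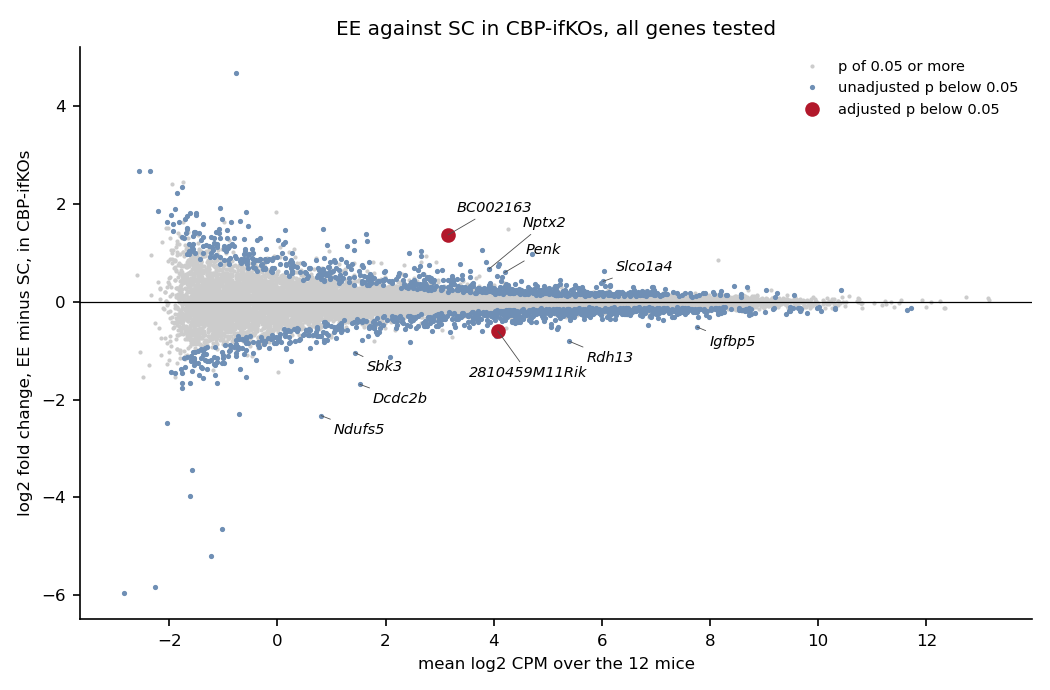
Each point is 1 of the 18251 genes tested. The horizontal axis gives its mean log2 CPM over the 12 mice and the vertical axis its log2 fold change, EE minus SC, in CBP-ifKOs. Red points are the 2 genes that passed an adjusted p of 0.05, blue points the genes at an unadjusted p below 0.05, and names mark 10 of the genes described in the text.

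The sizes were small. The median log2 fold change was 0.00 and the central 90% of genes lay between -0.40 and 0.43. Among the 2354 genes over 100 CPM, 61 were higher and 163 lower in EE at an unadjusted p below 0.05, whereas among the 3278 genes under 1 CPM 135 were higher and 113 lower. The plot of change by level shows this lean toward lower values at its right side.

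BC002163, the gene that rose, is a processed pseudogene on chromosome 16 (GRCm38, chr16:42955631-42955949, plus strand), that is, a copied messenger RNA set back into the genome. Its parent by sequence is Ndufs5, which encodes a subunit of complex I of the respiratory chain and lies on chromosome 4 (chr4:123712710-123718202, minus strand). The copy and the Ndufs5-201 transcript align over 319 bases without gaps, with 2 differing bases and 99.4% identity, and 318 of these bases are the coding part. Of the 270 windows of 50 bases, the read length, in BC002163, 196 occur exactly in an Ndufs5 transcript, and of the 476 such windows in Ndufs5-201, 196 occur in BC002163. The first 150 bases from the start codon are shown because both differences lie in them, in capitals. Counted from 1 at the first base, with the Ndufs5 base first, they are T81C and A105G. The stretch of Ndufs5 spans chr4:123715930-123716079 on the minus strand and that of BC002163 chr16:42955631-42955780 on the plus strand (GENCODE transcripts of GRCm38).
Ndufs5: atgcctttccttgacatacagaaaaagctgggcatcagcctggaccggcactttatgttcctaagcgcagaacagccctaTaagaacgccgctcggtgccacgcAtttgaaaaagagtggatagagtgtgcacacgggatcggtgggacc
BC002163: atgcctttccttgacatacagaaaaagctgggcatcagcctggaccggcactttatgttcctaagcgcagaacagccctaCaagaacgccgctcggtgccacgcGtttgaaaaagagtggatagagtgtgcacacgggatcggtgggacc

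The 2 sequences moved in opposite directions. BC002163 stood at 4.96, 4.57 and 5.93 CPM in SC mice 1 to 3 and at 14.9, 12.8 and 12.5 CPM in EE mice 1 to 3. Every EE mouse was thus above every SC mouse, with means of 13.4 ± 1.31 against 5.15 ± 0.702 CPM (SD, n = 3 each) and a log2 fold change of 1.37 ± 0.19 (SE), adjusted p = 0.0432 in edgeR's quasi-likelihood test. Ndufs5 stood at 4.07, 5.95 and 4.29 CPM in SC and at 1.14, 0.641 and 1.06 CPM in EE. Here every EE mouse was below every SC mouse (log2 fold change -2.33 ± 0.41, SE), with an adjusted p of 0.0933 in edgeR's quasi-likelihood test. A read that lies within the aligned part and covers neither differing base cannot be assigned to one of them from its sequence, and the authors kept alignments above a mapping quality of 10, so the level of each is uncertain. With the counts of the pair added up, an analysis chosen after the data were seen, SC mice stood at 9.03, 10.5 and 10.2 CPM and EE mice at 16, 13.5 and 13.5 CPM, a log2 fold change of 0.53 with an adjusted p of 0.278 in edgeR's quasi-likelihood test. Controls gave the same signs, 0.81 for BC002163 and -1.92 for Ndufs5 on the log2 scale, and a change of 0.41 for the sum. Their groups overlapped for Ndufs5, however, since control SC mouse 2 stood at 0.793 CPM, within the EE range of 0.698 to 0.849 CPM, against 4.08 and 3.88 CPM in control SC mice 1 and 3. The same mouse stood highest of the control SC mice for BC002163, at 10.2 CPM against 6.31 and 5.48 CPM.

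2810459M11Rik, a protein-coding gene still known by a clone name (chr1:86045863-86055456, plus strand), was the gene that fell. Its level was 19.5, 20.4 and 17.8 CPM in the SC mice and 12.7, 12.6 and 12.9 CPM in the EE mice. The groups were apart and the EE mice nearly level with each other. The mean went from 19.3 ± 1.34 to 12.7 ± 0.14 CPM (SD, n = 3 each), a log2 fold change of -0.60 ± 0.09 (SE) with an adjusted p of 0.0432 in edgeR's quasi-likelihood test. In controls its log2 fold change was -0.16, and the unadjusted p of the interaction was 0.0028, which did not pass adjustment over all genes in edgeR.

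**Figure D2:**
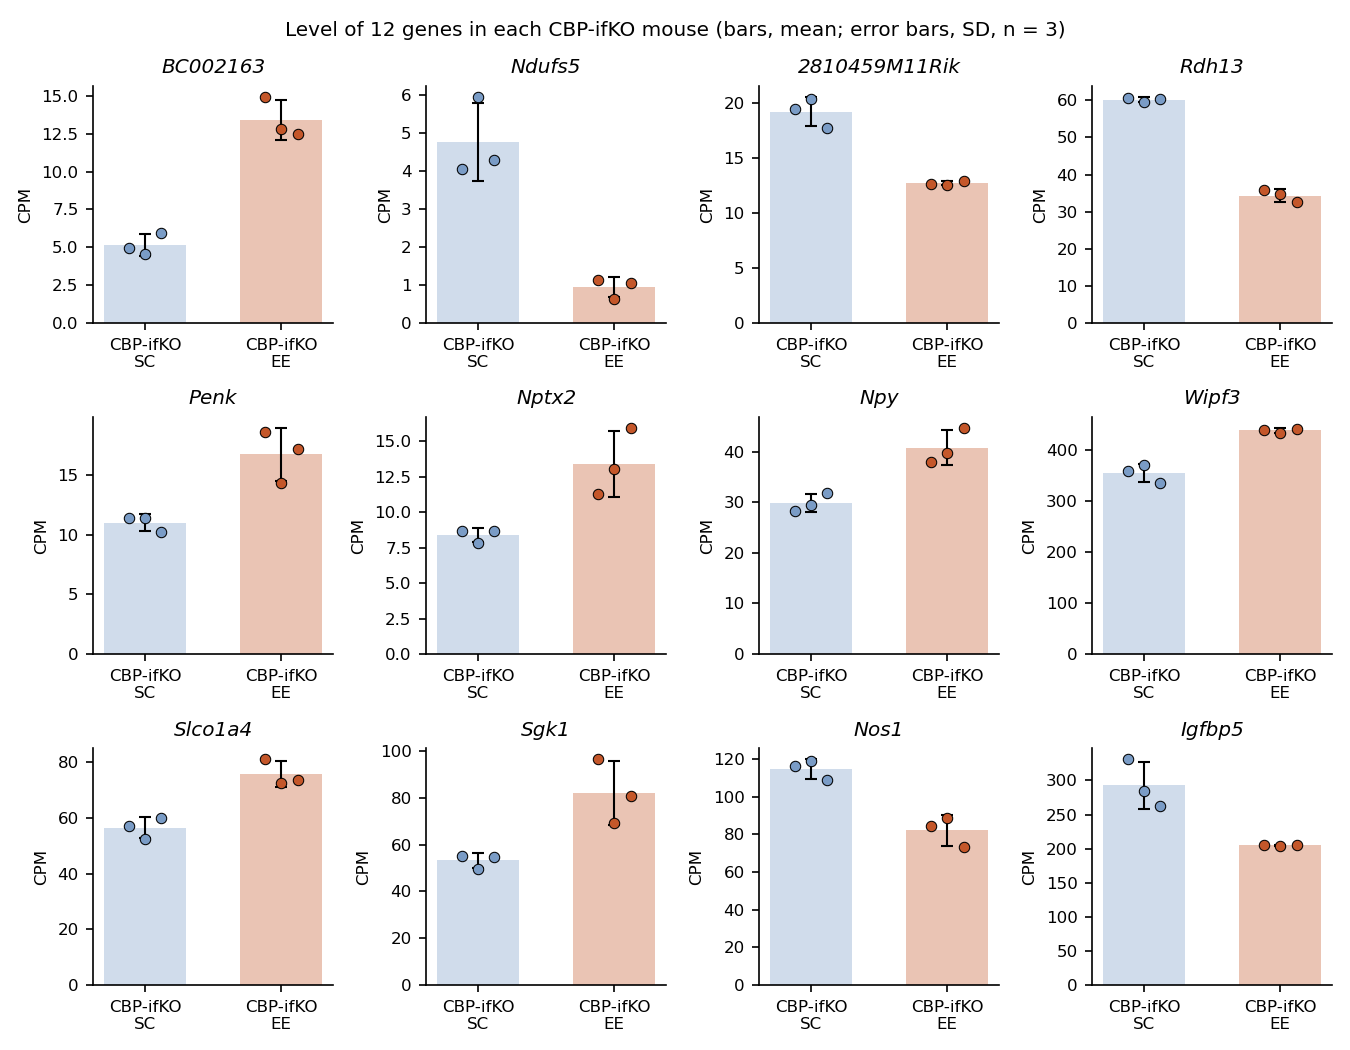
CPM of 12 genes in each of the 3 SC (blue) and 3 EE (orange) CBP-ifKO mice. Bars are means and error bars the SD, and in each panel the points of SC and EE do not overlap.

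The rest of the ranking held genes whose call depended on the tool and on the mice fitted. The ranked genes are BC002163 together with the 10 higher and 10 lower protein-coding genes of smallest p with a mean of at least 1 CPM and groups that did not overlap. Their adjusted p ran from 0.0432 to 0.194 in edgeR's quasi-likelihood test and their log2 fold changes from 0.23 to 2.33 in size. Of the 19 that did not pass in edgeR, 18 passed an adjusted p of 0.05 in DESeq2's Wald test, with the counts as deposited and with halved counts, and the exception was Sgk1. Fitted to the 6 CBP-ifKO mice alone, edgeR's quasi-likelihood test called some of the 19, such as Rdh13 (adjusted p = 4.25e-05) and Sgk1 (0.0281). It did not call others, such as Penk and Nptx2. Since the tools disagree, these values are given as measured. All 21 stayed below an unadjusted p of 0.05 with halved counts in edgeR. In the controls 20 of the 21 had a change of the same sign, against 58.8% of all genes tested, and in 13 the control groups were also apart in that direction, against 6.36%. Those shares include the 3278 genes under 1 CPM, which the ranking left out, so they are not shares of like genes. The ranking by p also used the spread shared with the controls. An interaction p below 0.05 before adjustment was seen in 7, but the genes were chosen on their change in CBP-ifKOs, which enters the interaction. Because the counting is not stated to use strand, 8 of the 21 are uncertain, since their exons overlap those of a gene read from the other strand. They are Penk, Wipf3, Acsl5, Vps29, Prss23, Dcdc2b, Nos1 and Doc2b.

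Several of the higher genes encode neuropeptides or activity-regulated synaptic proteins. Penk, the precursor of the enkephalins, stood at 11.4, 11.4 and 10.2 CPM in SC and at 18.6, 14.3 and 17.2 CPM in EE (log2 fold change 0.60 ± 0.10, SE). Nptx2, a secreted pentraxin that gathers AMPA receptors at synapses, stood at 8.67, 7.82 and 8.63 CPM in SC and at 11.3, 13 and 15.9 CPM in EE (0.68 ± 0.13). Npy, the precursor of neuropeptide Y, stood at 28.3, 29.4 and 31.9 CPM in SC and at 37.9, 39.8 and 44.6 CPM in EE (0.45 ± 0.10). All 3 were higher in every EE mouse than in any SC mouse. Their adjusted p in edgeR's quasi-likelihood test were 0.0933, 0.121 and 0.194. In controls the log2 fold changes were 0.30 for Penk, 0.70 for Nptx2 and 0.40 for Npy, and the interaction p before adjustment was 0.0474, 0.90 and 0.758.

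Other higher genes belong to blood vessels, hormone signaling and metabolism. Slco1a4, an organic anion transporter of the blood-brain barrier, stood at 57.2, 52.3 and 59.9 CPM in SC and at 81, 72.4 and 73.4 CPM in EE. Every EE mouse was above every SC mouse, with a log2 fold change of 0.42 ± 0.07 (SE), adjusted p = 0.0933 in edgeR's quasi-likelihood test. The control value was -0.02, with an unadjusted interaction p of 0.000397 that did not pass over all genes. Sgk1, a kinase induced by glucocorticoids, stood at 55.2, 49.6 and 54.8 CPM in SC and at 96.4, 69 and 80.7 CPM in EE. The EE mice varied more among themselves than the SC mice, but none reached the SC range. The log2 fold change was 0.62 in CBP-ifKOs (0.49 to 0.74 with 1 mouse left out) and 0.17 in controls. Wipf3, which binds regulators of the actin cytoskeleton, stood at 359, 369 and 335 CPM in SC and at 439, 433 and 441 CPM in EE, and its log2 fold change was 0.30 in CBP-ifKOs and 0.31 in controls. Aldh1a1, an enzyme that makes retinoic acid, was between 49.2 and 57.6 CPM in SC and between 61.5 and 74.4 CPM in EE. The other higher genes were Acsl5, a fatty acyl-CoA synthetase (0.32), Vps29, a subunit of the retromer that sorts endosomal cargo (0.23), and Prss23, a secreted serine protease (0.62), with log2 fold changes in parentheses.

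The lower genes encode proteins of varied function. Rdh13, a retinol dehydrogenase of mitochondria, stood at 60.7, 59.4 and 60.3 CPM in SC and at 35.7, 34.8 and 32.5 CPM in EE. The groups were apart (log2 fold change -0.81 ± 0.15, SE, adjusted p = 0.121 in edgeR's quasi-likelihood test), and the control change was -0.26 with an unadjusted interaction p of 0.0248. Control mice of the same housing differed widely, at 32, 50.2 and 49.3 CPM in SC and 33.5, 46.9 and 29.3 CPM in EE. Nos1, the neuronal nitric oxide synthase, stood at 116, 119 and 109 CPM in SC and at 84.5, 88.7 and 73 CPM in EE (-0.48 ± 0.09). Igfbp5, a secreted protein that binds insulin-like growth factors, stood at 331, 285 and 263 CPM in SC and at 206, 204 and 205 CPM in EE (-0.51 ± 0.10). No EE mouse reached the SC range of either gene, and the controls gave -0.29 for Nos1 and -0.37 for Igfbp5. Wwtr1, the Hippo pathway coactivator TAZ, stood at 22.5, 23.8 and 22.2 CPM in SC and at 17.3, 18 and 16.9 CPM in EE (-0.39). Doc2b, a calcium sensor of vesicle release (-0.30), Adcyap1r1, the PACAP receptor (-0.30), Sbk3, a kinase (-1.04), and Dcdc2b, which carries a doublecortin domain (-1.69), complete the set. Dcdc2b ranged from 5.19 to 6.46 CPM in SC and from 1.44 to 2.43 CPM in EE, and it shares exonic sequence with Tmem234. The control change was -1.48, with control SC mouse 2 at 1.85 CPM, near the EE range of 1.32 to 1.84 CPM, and control SC mice 1 and 3 at 6.05 and 5.12 CPM. Rdh13 (chr7:4424770-4445649) and Sbk3 (chr7:4965260-4971168) lie near each other, both on the minus strand.

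**Figure D3:**
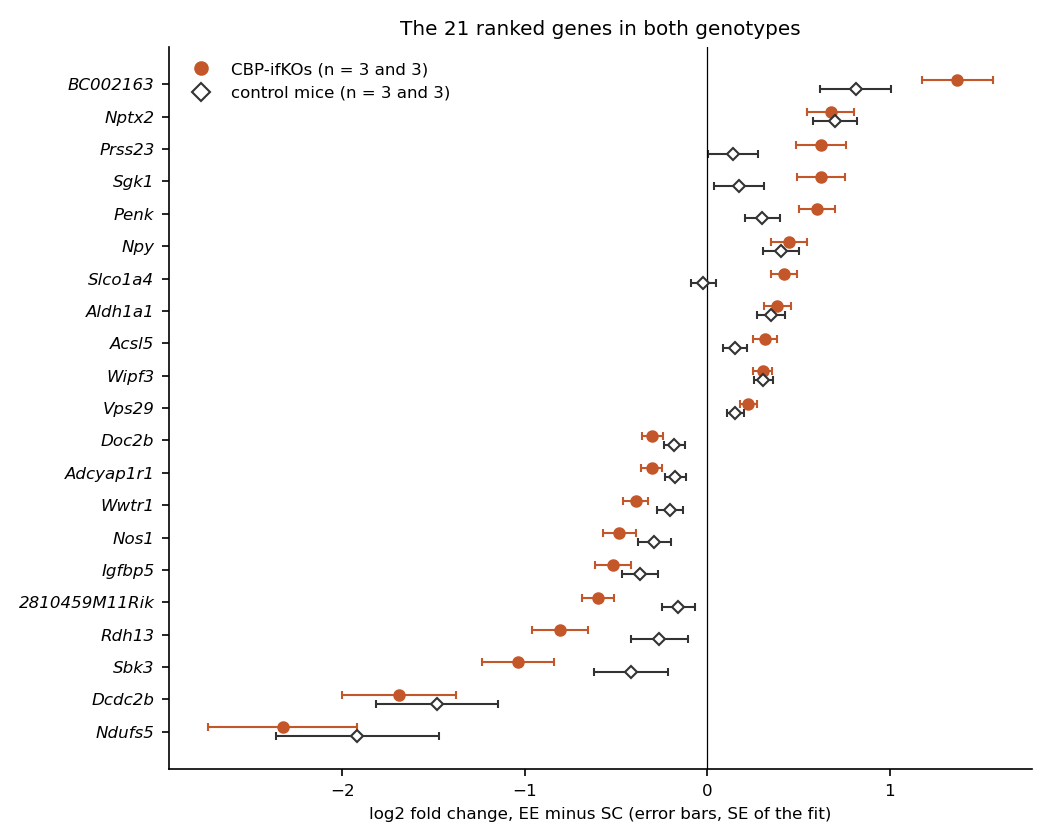
Log2 fold change, EE minus SC, of the 21 ranked genes in CBP-ifKOs (filled) and in controls (open), with the SE of the fit as error bars. The 2 genotypes share a sign in 20 genes, the exception being Slco1a4, at 0.42 and -0.02.

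Across the whole transcriptome the changes in the 2 genotypes were weakly related. The correlation of log2 fold changes across the 18251 genes was r = 0.111 (Spearman rho = 0.169), and across the 11822 genes with at least 5 CPM on average it was 0.268 (rho = 0.331). Genes are not independent replicates and these values are a description. The 2 comparisons share no mouse.

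Gene groups were described by how many members were higher or lower at an unadjusted p below 0.05, which is 3.97% and 4.62% of all genes tested, and by their median log2 fold change, which is 0.00 over all genes. In edgeR's quasi-likelihood test of all 12 mice no member passed over all genes tested unless named above. DESeq2's Wald test called 11 members of these lists outside the ranked genes, among them Tef (adjusted p = 0.00192), Sox9 (0.00352), Otof (0.0255), Maml2 (0.0367), Lypd1 (0.0417) and Itm2a (0.0446), and with halved counts it called 4, among them Tef (0.00212) and Sox9 (0.0251). These counts are descriptions, with no test of a group. As with the ranked genes, exons of some members described below overlap those of a gene read from the other strand, which leaves their levels uncertain. They are Bdnf, Jun, Enpp2, Prox1, Tagln, Lypd1, Syt7, Csf1r, Hmgcs1, Manf, Plin4, Tef, Fgfr1 and Lmtk3.

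Late response genes leaned upward and immediate early genes did not. Of the 24 late response genes, 8 (33.3%) were higher and 1 (4.17%) lower, with a median log2 fold change of 0.09. Besides Penk, Nptx2 and Npy the higher members included Inhba, the activin A subunit, at 4.84, 4.08 and 5.35 CPM in SC and 5.43, 7.31 and 7.34 CPM in EE. Ptgs2, the inducible cyclooxygenase, stood at 22.4, 27.1 and 29.9 CPM in SC and at 34.7, 29.9 and 31.9 CPM in EE. The member that was lower was Nptx1, a second neuronal pentraxin (708, 763 and 671 CPM in SC, 546, 665 and 582 CPM in EE). The mean log2 CPM of the list was 4.571, 4.575 and 4.602 in SC and 4.718, 4.674 and 4.798 in EE, so the groups did not overlap. The median of the controls was also 0.09. It dropped to 0.02 in CBP-ifKOs when EE mouse 3 was left out and to 0.03 with a filter of 1 CPM.

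Bdnf, the neurotrophin most often linked to EE, stood at 30.1, 33.8 and 30.9 CPM in SC and at 33.6, 32.4 and 39.6 CPM in EE. These values overlapped (log2 fold change 0.16, adjusted p = 0.711 in edgeR's quasi-likelihood test), and the control change was 0.21. Pdyn, the dynorphin precursor, stood at 5.26, 6.37 and 6.3 CPM in SC and at 5.01, 5.55 and 5.58 CPM in EE, again with overlap. Its level in controls lay between 13 and 17.6 CPM. Robo3 and Wnt9a, an axon guidance receptor and a Wnt ligand, gave log2 fold changes of 0.13 and 0.30 in CBP-ifKOs with overlapping groups, and of 0.47 and 0.64 in controls, with unadjusted interaction p of 0.063 and 0.173. With 1 CBP-ifKO mouse left out the changes ran from 0.06 (without EE mouse 3) to 0.21 for Bdnf, from 0.01 (without EE mouse 2) to 0.29 (without EE mouse 1) for Robo3 and from 0.14 (without EE mouse 1) to 0.46 (without EE mouse 2) for Wnt9a.

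Among the 24 immediate early genes none was higher and 2 (8.33%) were lower at an unadjusted p below 0.05, 21 had a negative change, and the median was -0.14, against -0.15 in the controls. Jun, a subunit of AP-1, stood at 81.5, 85 and 82.3 CPM in SC and at 72, 74.8 and 70.4 CPM in EE, without overlap. The genes of acute activity varied widely between mice. Fos stood at 23.7, 24.2 and 26.5 CPM in SC and at 5.22, 21.4 and 35.6 CPM in EE. Arc, which acts in the removal of AMPA receptors, stood at 180, 192 and 132 CPM in SC and at 68.2, 162 and 234 CPM in EE. EE mouse 1 was the lowest and EE mouse 3 the highest of all 6 mice for both, so that EE spread to both sides of SC. Control SC mice varied as widely, at 4.83, 11.8 and 47.3 CPM for Fos and 86.6, 94.3 and 229 CPM for Arc. Without EE mouse 1 the log2 fold change turned to 0.20 for Fos and 0.24 for Arc, and the median of the list to 0.01. Without EE mouse 3 that median was -0.33. Npas4, a transcription factor induced by calcium influx, stood at 18.1, 22.2 and 26.3 CPM in SC and at 8.84, 16.9 and 20.3 CPM in EE, with overlap.

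**Figure D4:**
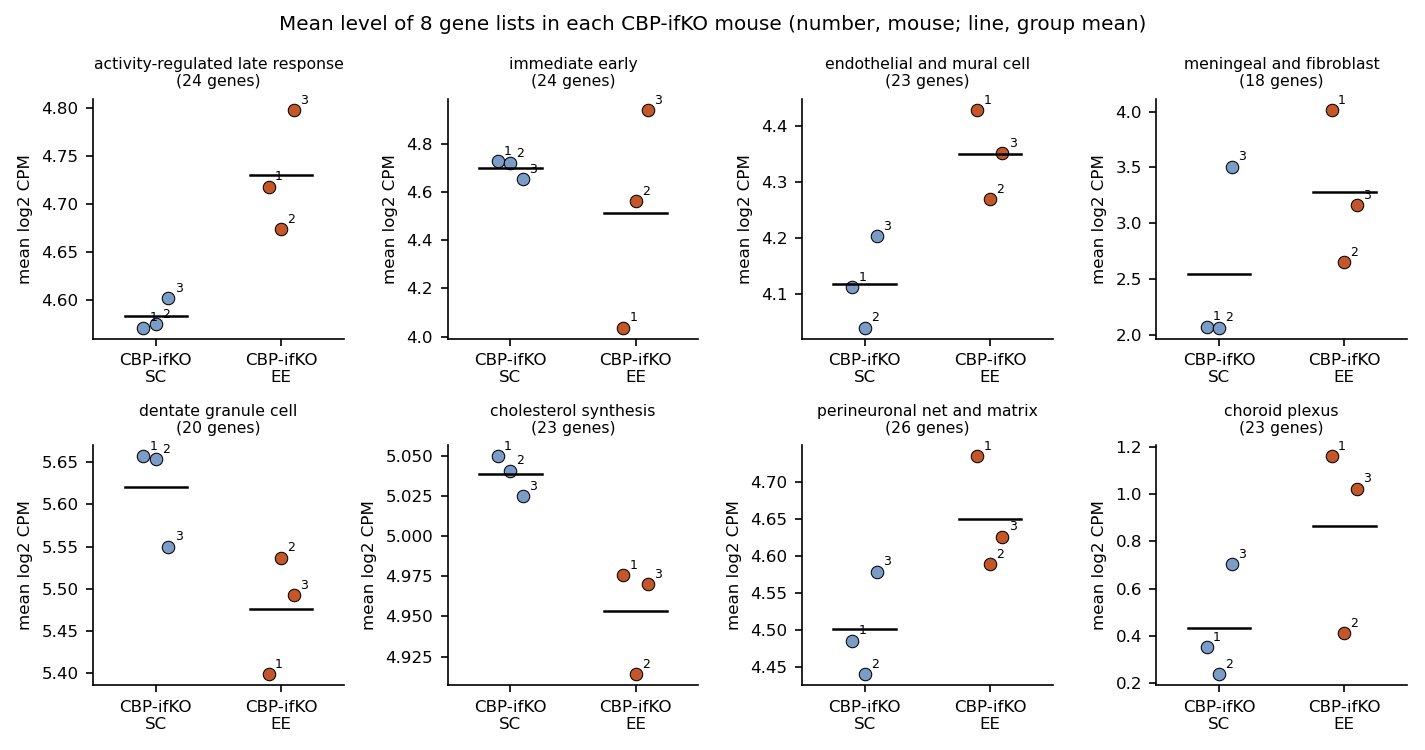
Mean log2 CPM of the members of 8 gene lists in each CBP-ifKO mouse, with the mouse number beside each point and the group mean as a line. The vertical axes differ between panels and do not start at 0. SC and EE do not overlap for late response, endothelial and mural, dentate granule, cholesterol and perineuronal net genes, and they overlap for immediate early, meningeal and choroid plexus genes.

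Genes of vessel cells leaned upward in the CBP-ifKOs. Of the 23 endothelial and mural cell genes, 8 (34.8%) were higher and none lower, the median was 0.17, and the mean log2 CPM was 4.112, 4.04 and 4.203 in SC and 4.428, 4.269 and 4.351 in EE. Besides Slco1a4 these were Itm2a, Myl9, Acta2, Tek, Tagln, Rgs5 and Ly6c1, of which Myl9, Acta2, Tek, Tagln and Ly6c1 are named after their values were seen. Itm2a, a membrane protein of the vessel wall, stood at 63.1, 66.9 and 72.2 CPM in SC and at 82.8, 80.9 and 89.1 CPM in EE. Rgs5, a marker of pericytes, stood at 116, 108 and 99.5 CPM in SC and at 120, 116 and 123 CPM in EE, with SC mouse 1 and EE mouse 2 both near 116. Acta2, the actin of smooth muscle, stood at 14.9, 17.2 and 27 CPM in SC and at 51.9, 26.2 and 38.4 CPM in EE, with overlap. The defining endothelial markers overlapped between the groups, Cldn5 with a log2 fold change of -0.01 and Flt1 with -0.12. In the controls the median of the list was -0.08, and 8 of its genes had an interaction p below 0.05 before adjustment, against 3.15% of all genes.

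Meningeal and fibroblast genes moved alongside, with large differences between mice. Of these 18 genes, 5 (27.8%) were higher and none lower, and the median was 0.79, against -0.55 in controls. With halved counts 2 were higher and none lower, and no gene of the list had groups apart in CBP-ifKOs. Their mean log2 CPM was 2.073, 2.065 and 3.508 in SC mice 1 to 3 and 4.017, 2.65 and 3.164 in EE mice 1 to 3, so SC mouse 3 stood above EE mice 2 and 3. Without SC mouse 3 the median was 1.36, and without EE mouse 1 it was 0.19. Col1a2, a collagen of fibroblasts named after its values were seen, stood at 6.22, 6.37 and 16.2 CPM in SC and at 26.2, 10.1 and 13.6 CPM in EE. The defining markers were present in every mouse, Dcn at 54.3, 47.6 and 83.9 CPM in SC and 96, 40.3 and 44.1 CPM in EE, and Lum between 3.05 and 9.46 CPM. How much of the difference in vessel genes goes with tissue from the meninges was not tested.

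Choroid plexus genes varied between mice. Ttr, which the plexus makes in great amounts, stood at 7.17, 6.02 and 7.73 CPM in SC and at 32.3, 4.06 and 22.8 CPM in EE, and Folr1 did not exceed 1.24 CPM in any CBP-ifKO. Enpp2, an enzyme that makes lysophosphatidic acid, stood between 161 and 208 CPM in the CBP-ifKOs. Of 23 such genes none was higher and 1 (4.35%) lower, and the median was 0.30, or 0.14 without EE mouse 1 and 0.19 with a filter of 1 CPM. The control median of 1.28 goes with 1 mouse, control EE mouse 1, whose mean log2 CPM over the list was 3.751 against 0.442 to 1.113 in the other 5 controls. The part of plexus tissue in any gene above was not tested. Hemoglobin and other blood genes (6 tested) and the 14 ependymal genes had no member at an unadjusted p below 0.05. Their medians of 0.11 and -0.06 changed sign with 1 mouse left out, running from -0.42 to 0.44 for blood (lowest without EE mouse 3) and from -0.19 to 0.08 for ependyma (highest without EE mouse 2).

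Dentate granule cell genes leaned down in EE. Of 20, 6 (30%) were lower and none higher at an unadjusted p below 0.05, 3 had a positive change, the median was -0.13 in CBP-ifKOs and 0.01 in controls, and 6 had an unadjusted interaction p below 0.05. Maml2, a coactivator of Notch signaling, stood at 26.4, 26.3 and 26.4 CPM in SC and at 22.6, 20.9 and 17.7 CPM in EE. Stxbp6, which binds the vesicle fusion machinery, stood at 123, 119 and 102 CPM in SC and at 85.8, 98.2 and 97.8 CPM in EE. Both were lower in every EE mouse than in any SC mouse, with log2 fold changes of -0.37 and -0.29. The markers that define these cells gave -0.13 for Prox1, with overlapping groups, and -0.37 for C1ql2, at 17.8, 22.2 and 25.6 CPM in SC and 14.7, 18 and 18 CPM in EE. The mean log2 CPM of the list was 5.657, 5.654 and 5.55 in SC and 5.399, 5.537 and 5.493 in EE, and its median stayed between -0.17 and -0.10 with each mouse left out in turn.

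The other neuron lists were mixed. Of the 16 mossy cell and subicular genes 1 was higher and 4 (25%) lower, with Lypd1, a modulator of nicotinic receptors, at 40.5, 43.8 and 49.9 CPM in SC and 39.1, 32.7 and 32.5 CPM in EE. The CA1 list (16 genes) had 1 higher and 2 lower, the CA3 list (15 genes) 2 higher and none lower, and the CA2 list (13 genes) none. Among the 22 interneuron genes 2 were higher and 1, Nos1, lower, while Gad1 differed by -0.01 on the log2 scale. The list of adult neurogenesis and proliferation, which EE is known to favor, had 1 of 29 genes higher and 1 lower, and its median was -0.01 (-0.04 to 0.04 with 1 mouse left out).

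Glutamate receptor genes leaned down, with 4 of 24 (16.7%) lower and none higher and a median of -0.04 (-0.07 to -0.03 with 1 mouse left out, the lowest without EE mouse 2). Grin3a, a subunit of NMDA receptors, stood at 57.9, 58.5 and 63.2 CPM in SC and at 55, 54.9 and 47.6 CPM in EE. The groups were apart. Of 40 synaptic vesicle release genes 5 (12.5%) were lower, Doc2b and the calcium sensor Syt7 among them, and 1 (2.5%) higher. The 14 GABA-A receptor genes had none in either direction, and the 61 potassium channel genes 2 higher and 3 lower.

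Astrocyte genes were split. Of 20, 4 (20%) were lower and none higher, though the median was only -0.02 (-0.04 to -0.01 with 1 mouse left out). Sox9, a transcription factor of astrocytes, stood at 28.5, 27.2 and 30.9 CPM in SC and at 22, 21.1 and 22.2 CPM in EE (log2 fold change -0.41), with -0.40 in controls. Gja1, the gap junction protein connexin 43, stood at 245, 251 and 246 CPM in SC and at 211, 213 and 231 CPM in EE. In both genes the 2 groups were apart, while Aqp4, the water channel of astrocyte endfeet, overlapped (149 to 158 CPM in SC, 132 to 164 CPM in EE). Of 22 microglia genes 3 (13.6%) were lower, among them Csf1r, the receptor these cells need to survive, at 102, 97.7 and 95.7 CPM in SC and 86.9, 89.8 and 88.4 CPM in EE. Of 22 oligodendrocyte genes 2 (9.09%) were higher, Cldn11, the tight junction protein of myelin (84.2, 98.9 and 86.1 against 104, 108 and 119 CPM), and Enpp6, a marker of newly forming oligodendrocytes (5.2, 7.06 and 5.83 against 7.6, 8.38 and 9.87 CPM). Of 12 precursor genes 2 (16.7%) were higher.

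Genes of the respiratory chain were slightly and broadly higher. Of the 85 nuclear oxidative phosphorylation genes 73 had a positive change, 19 (22.4%) were higher and 2 (2.35%) lower at an unadjusted p below 0.05, and the groups were apart in 34 (40%) that were higher, against 7.69% of all genes. The sizes were small, with a median of 0.10 in CBP-ifKOs and 0.05 in controls, and stayed between 0.09 and 0.12 with each mouse left out. Atp5k, a subunit of ATP synthase, stood at 46.2, 53.7 and 54.5 CPM in SC and at 64.8, 62.6 and 62.3 CPM in EE. Ndufc1, a subunit of complex I, stood at 25, 24 and 23.4 CPM in SC and at 30.5, 27.9 and 29.1 CPM in EE. Ndufs5, above, and Atp5g1 (21.4, 20.4 and 19.8 against 17.3, 18.3 and 18.2 CPM) were the members that were lower. The 7 genes tested of the mitochondrial genome had none in either direction, and the share of reads on that genome was 4.48% to 4.73% in SC and 4.52% to 4.97% in EE. Of 83 cytosolic ribosomal protein genes 6 (7.23%) were higher and 2 (2.41%) lower, with a median of 0.08. Shorter genes leaned higher and longer genes lower across all 18251 genes (Spearman rho of the change with gene length -0.132), and the part of length in these 2 lists was not tested.

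Cholesterol synthesis and protein folding genes leaned down. Of 23 cholesterol synthesis genes 4 (17.4%) were lower and none higher, 7 (30.4%) had groups apart in that direction against 8.17% of all genes, and the median was -0.09, against -0.06 in controls. Hmgcs1, an early enzyme of the pathway, stood at 207, 201 and 201 CPM in SC and at 187, 172 and 189 CPM in EE. Msmo1, a later enzyme, stood at 104, 103 and 105 CPM in SC and at 91.6, 83.8 and 97.9 CPM in EE. All EE mice were below all SC mice for both. Of 31 heat shock and chaperone genes 5 (16.1%) were lower and none higher, and these 5 act in the endoplasmic reticulum: Hyou1, Manf, Hspa5, Pdia4 and Sdf2l1, the last 3 named after their values were seen. Hyou1 stood at 137, 135 and 129 CPM in SC and at 121, 114 and 114 CPM in EE. The control median of that list was -0.12 and that of the CBP-ifKOs -0.04 (-0.06 to 0.00 with 1 mouse left out, the highest without EE mouse 2).

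Glucocorticoid-induced genes had 6 of 22 (27.3%) higher and 1 (4.55%) lower, with a median of 0.08 and, in controls, 0.06. The median was 0.02 without EE mouse 1 and 0.15 without SC mouse 3 or EE mouse 2. Besides Sgk1, Klf9, a transcription factor induced by corticosterone, stood at 207, 203 and 206 CPM in SC and at 236, 218 and 230 CPM in EE, without overlap. Pdk4, a kinase that restrains pyruvate dehydrogenase, was the member that was lower (12.9, 15.1 and 10.8 against 10.2, 10.5 and 9.99 CPM). Some of the other members followed 1 mouse. Plin4, a lipid droplet protein named after its values were seen, stood at 14.8 CPM in EE mouse 1 against 2.09 to 3.81 CPM in the other mice. Circadian clock genes had 2 of 19 (10.5%) lower and none higher, with Tef, an output transcription factor of the clock, at 502, 515 and 480 CPM in SC and 440, 429 and 408 CPM in EE. The time of day at which tissue was taken was not tested.

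**Figure D5:**
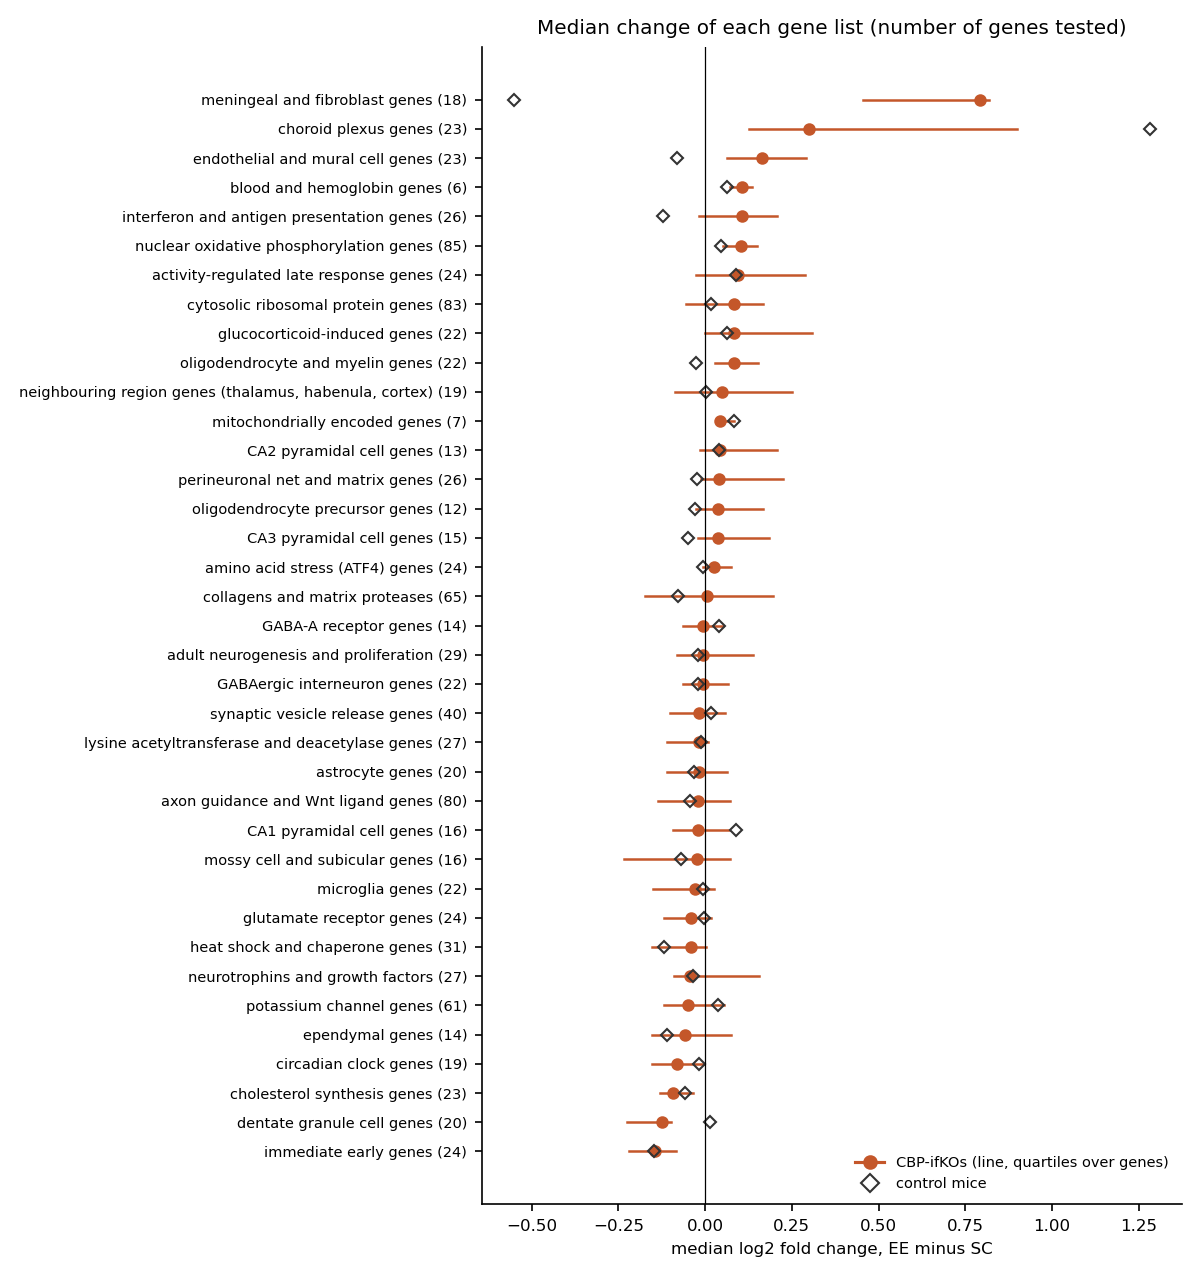
Median log2 fold change, EE minus SC, of 37 gene lists in CBP-ifKOs (filled points, with lines for the quartiles over genes) and in controls (open diamonds). Medians of CBP-ifKOs run from 0.79 for meningeal and fibroblast genes to -0.14 for immediate early genes, and most lie within 0.1 of 0.

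The remaining lists are given by their counts and single members. Neurotrophins and growth factors had 3 of 27 higher and 2 lower, with Fgfr1, a receptor of fibroblast growth factors, higher (117, 121 and 122 against 126, 140 and 136 CPM) and Inhbb, a subunit of activin B, lower (7.59, 8.93 and 7.31 against 4.55, 6.62 and 5.64 CPM). Interferon and antigen presentation genes had 4 of 26 higher and 2 lower. Of those higher, H2-Aa, H2-Ab1 and Cd74, named after their values were seen, belong to MHC class II and were highest in EE mouse 1, for example Cd74 at 8.89 CPM there against 1.04 to 3.82 CPM in the other mice. Perineuronal net and matrix genes had 3 of 26 higher and 1 lower, axon guidance and Wnt ligand genes 4 of 80 higher and 5 lower, collagens and matrix proteases 2 of 65 higher and 5 lower, amino acid stress genes 2 of 24 higher and 1 lower, and genes of the thalamus, habenula and cortex 2 of 19 higher and 1 lower. Lysine acetyltransferase genes, such as CBP, and deacetylase genes had 1 of 27 lower, the deacetylase Hdac1, at 10.3, 8.86 and 10.6 CPM in SC and 6.61, 7.26 and 5.87 CPM in EE. In controls Hdac1 stood at 8.98, 5.18 and 8.57 CPM in SC and at 5.25, 5.75 and 5.41 CPM in EE. Control SC mouse 2 was thus at the level of the EE mice. Ep300 overlapped between the groups (75.7 to 78.1 CPM in SC, 67.7 to 80.4 CPM in EE), and Crebbp was lower in all EE mice than in all SC mice (50.6, 51.6 and 50 against 44.5, 48.3 and 46.7 CPM) without passing the test (log2 fold change -0.12).

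Lists that the study itself drew were counted last. Its genes decreased and its genes increased in CBP-ifKOs were chosen in part on the SC mice used here, so that the EE change of either list is not independent of the choice. Of the 192 decreased genes 19 (9.9%) were higher and 27 (14.1%) lower in EE, the median was -0.02, and the mean log2 CPM stood between 6.251 and 6.263 in SC and between 6.239 and 6.25 in EE. Penk and Nptx2 belong to it, as does Otof, a calcium sensor of exocytosis, at 5.44, 4.5 and 3.07 CPM in SC and 2.43, 2.51 and 2.41 CPM in EE. Of the 19 genes increased in CBP-ifKOs none was higher and 5 (26.3%) lower, Igfbp5 and Rreb1, a zinc finger transcription factor, among them. The genes that kindling, a course of repeated injections of the convulsant PTZ, changed in other mice of the study gave 9 of 144 higher and 6 lower for those increased in controls, 2 of 51 higher and 3 lower for those decreased in controls, 1 of 13 higher and none lower for those increased in CBP-ifKOs, and 1 of 44 higher and 9 (20.5%) lower for those decreased in CBP-ifKOs, with medians of 0.00, 0.00, -0.21 and -0.10. Without EE mouse 1 the third median was 0.13, and without EE mouse 3 it was -0.55. The third of these lists holds Fos and Arc, and the fourth Lmtk3, a kinase (257, 250 and 245 against 221, 230 and 212 CPM).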

How the data were processed

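Hippocampal RNA of 12 mice (2 runs each) was measured by 50 bp single-end RNA-seq. The authors trimmed the reads, mapped them to mm10 with STAR, required a mapping quality above 10 and deposited raw counts per gene on Ensembl exons. The submitters' processing notes name FastQC 0.11.8, Trim Galore 0.6.4, STAR 2.6.1 and DESeq2 1.30.1. The gene length the authors deposited is no measurement and served only in a length correction. Counts were fitted with edgeR 4.0.16 in R 4.3.3 (expression filter, TMM, quasi-likelihood F test by the installed default method, 1 coefficient for each of 4 groups of 3 mice, Benjamini-Hochberg at 0.05). List levels average log2 CPM (prior count 2). Alternatives included DESeq2 1.42.0, halved counts, other filters, thinning, offsets, a replicate block and leaving out each mouse. The procedure was tested on simulated data. Members, lists and tests were chosen with earlier results of these data known. Named genes are those past the threshold, the 10 higher and 10 lower of smallest p, up to 2 per direction in each list, the most abundant marker of cell lists, and Crebbp, Ep300, Esr1, Bdnf, Nptx2, Penk, Pdyn, Fos, Arc, Npas4, Robo3 and Wnt9a. Annotation and sequences came from GENCODE (GRCm38), which gave 55230 of 55471 genes a symbol. Mice are separate animals. Counts of the other screens of the study were not used here, and gene lists drawn from them were used by identifier only.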

Additional observations from a re-analysis of the deposited data

Results flagged for a closer look

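The EE-decreased list (89 genes) moved in opposite directions in the 2 genotypes. Its mean log2 CPM was 0.166 higher in EE than in SC in CBP-ifKOs and changed by -0.327 in controls, and in both genotypes the EE and SC mice did not overlap. Its genes were chosen by the study on these same mice, from an EE effect or a difference of that effect between genotypes, so its direction is not independent evidence, and the difference between genotypes was not tested here. In CBP-ifKOs 24 (27%) of its genes were higher and 5 (5.62%) lower at an unadjusted p below 0.05. For the EE-increased list (84 genes), 11 (13.1%) were higher and 20 (23.8%) lower, and the mean log2 CPM differed by -0.081 in CBP-ifKOs, where SC and EE overlapped, and by 0.307 in controls, where they did not. This difference was not tested either, and the list has the same origin.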

How the results depend on the processing

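The number of genes called for EE in CBP-ifKOs depended on the procedure. Against 2 as reported, it was 0 with halved counts, 0 with counts thinned to the smallest library, 21 with the 6 CBP-ifKO mice alone (21 with their counts halved), 54 with DESeq2 (32 halved), 247 without a filter on low counts, 13 with offsets for length and GC content and 7 at an adjusted p below 0.1. It stayed at 2 with DESeq2's size factors, a 1 CPM filter, the other quasi-likelihood method and a threshold of 0.5 on the log2 fold change. The replicate block gave 45 genes (41 with offsets). Replicate numbers did not pair the CBP-ifKO mice, since deviations of same-numbered mice correlated at -0.043, 0.086 and -0.046, and 1 of the 3 control pairs was also low (0.191, 0.305 and 0.034). Leaving out 1 mouse gave 0 to 10 genes, with 0 without any 1 CBP-ifKO, 10 without control SC mouse 2, and 1 without control SC mouse 3 or control EE mouse 3. Over the 26 settings BC002163 was called in 18, 2810459M11Rik in 16 and Rdh13 in 10. Controls gave 15 genes with DESeq2 (15 halved), 145 without the filter and 0 to 5 with 1 mouse left out, against 0, and the interaction gave 110 without the filter, against 0. The causes were not tested.

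Of the list medians, that of late response genes was 0.034 with a 1 CPM filter. With 1 mouse left out, medians ran from 0.017 to 0.13 for late response, -0.066 to 0.049 for CA1, -0.178 to 0.034 for mossy and subicular, 0.022 to 0.086 for oligodendrocyte precursor, -0.003 to 0.093 for neighbouring region, 0.012 to 0.054 for amino acid stress and -0.054 to -0.01 for potassium channel genes. They ran from -0.02 to -0.005 for the list of genes decreased in CBP-ifKOs, -0.011 to 0.011 for kindling-decreased genes of controls and -0.546 to 0.132 for kindling-increased genes of CBP-ifKOs. Among other lists, the median turned sign for oligodendrocyte and myelin (-0.021 to 0.179) and for interferon and antigen presentation genes (-0.01 to 0.181). That of perineuronal net and matrix genes ran from 0.012 to 0.101. Signs turned with 1 mouse left out in 8 named genes that did not pass the test, with log2 fold changes in Hbb-bs (-0.334 to 0.568), Tshz2 (-0.206 to 0.01), Fos (-0.9 to 0.199), Dkk3 (-0.094 to 0.073), Arc (-0.546 to 0.237), Esr1 (-0.021 to 0.116), Ntsr2 (-0.031 to 0.006) and Dcn (-0.558 to 0.24). No other gene chosen by the naming rule changed sign in any setting, and genes named outside the rule, such as the defining markers, were not refitted one by one.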

Other observations

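By chromosome, the share of genes at an unadjusted p below 0.05 in CBP-ifKOs ran from 6.28% of 605 genes on X to 11.1% of 1055 genes on chromosome 4 among the autosomes and X, against 8.59% of all genes tested. On chromosome 4, 48 genes were higher and 69 lower. Ndufs5, Dcdc2b, Hdac1 and Penk lie on it, and Hdac1 (chr4:129516104-129542713) and Dcdc2b (chr4:129608331-129614257), both lower in EE in CBP-ifKOs, are neighbours on the minus strand. Control SC mouse 2 stood near the control EE mice for both, at 5.18 CPM for Hdac1 and 1.85 CPM for Dcdc2b.

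Gm11681, a long noncoding RNA of the study's list of EE-increased genes, lies beside Sox9 on chromosome 11 (chr11:112792731-112799008). It stood at 4.66, 6.16 and 5.35 CPM in SC CBP-ifKOs and at 2.38, 2.4 and 2.64 CPM in EE CBP-ifKOs, so that every EE mouse was lower. In controls its log2 fold change was 0.09, against -1.12 in CBP-ifKOs, with an unadjusted interaction p of 0.0011 that did not pass adjustment over all genes. By gene type, processed pseudogenes had 23 of 424 genes higher and 21 lower at an unadjusted p below 0.05 in CBP-ifKOs, 10.4% in either direction. Protein-coding genes had 611 of 15002 higher and 698 lower, 8.73% in either direction. Both shares are near the 8.59% of all genes tested.

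The limits of these values lie in 3 mice a group, in counts that were all even in the CBP-ifKOs, and in whole tissue, where meningeal and choroid plexus genes varied from mouse to mouse. A floor of 3 counts lay at about 0.1 CPM, or up to 0.21 CPM if each read was counted 2 times, so levels near it rest on few reads. A single EE mouse decided the direction of Fos and Arc.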
